A study of Mus musculus with 6 samples.

Results

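The keratins described here are 10 genes, most of which mark the luminal or the basal layer of the mammary epithelium: Krt5, Krt6a, Krt7, Krt8, Krt14, Krt15, Krt17, Krt18, Krt19 and Krt80. They were looked up by symbol in the authors' table of 15973 protein-coding genes, which lists 8 of the 10. Krt5 and Krt6a were read from the count matrix by gene identifier, and their 0 counts in all 6 libraries are given below.

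Keratins are the intermediate filament proteins of epithelial cells. A filament is built from obligate pairs of an acidic type I chain and a basic type II chain, so the chains are usually made in matched partners. Luminal mammary cells are known for KRT8 with KRT18, together with KRT7 and KRT19, while basal and myoepithelial cells are known for KRT5 with KRT14. KRT6A, KRT16 and KRT17 are known from skin as keratins of injured or rapidly growing epithelium.

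The cells were 4T1-T cells, a clonal derivative of the mouse mammary carcinoma line 4T1 that the study classes as proficient in vasculogenic mimicry, the formation of vessel-like channels by tumor cells. All cells were starved of serum overnight, given acetylated low-density lipoprotein (acLDL) carrying Alexa-488 at 10 ug/mL for 4 h, and returned to complete growth medium for 1 h. The brightest 25% of cells were then sorted as acLDL-high and the dimmest 25% as acLDL-low, with 3 libraries of each, numbered as replicates 1, 2 and 3. The series text says that the experiment was run on 3 occasions, while the sample labels give only replicate numbers. Populations were compared within replicate numbers. The p values weigh each difference against an error that draws on its spread over the 3 numbers and on the spread of other genes. The 2 populations therefore came from the same clone and the same treatment and differed in lipoprotein uptake. As these are bulk samples, more cells with a transcript and more transcript per cell cannot be told apart.

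The 6 polyA libraries held between 70263372 and 94216786 counts, of which the protein-coding genes of the authors' table took 98.4% to 98.7%. A count of 0 allows up to 3 counts, or 0.0323 to 0.0429 CPM (the count scaled to a common library size). This limit covers counting error only and takes each count as independent. The limit would be higher if both reads of a pair were counted. Libraries with the same replicate number resembled each other more than libraries of the same population did, so acLDL-high was compared with acLDL-low within replicate numbers. Log2 fold changes and adjusted p values came from edgeR's quasi-likelihood test over 12572 genes with the replicate number as a block and Benjamini-Hochberg adjustment, with its standard error (SE), and an adjusted p under 0.05 is referred to as called.

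The keratin genes lie in 2 clusters of GRCm38. Krt15, Krt19, Krt14 and Krt17 sit within 129.3 kb of chromosome 11, and the type II genes sit within 684.6 kb of chromosome 15 together with the type I gene Krt18. Krt8 and Krt18 are separated by 23.7 kb and are transcribed away from each other. RefSeq promoter sequences were matched for 5 of the 10 genes. Those shown here are the promoters of Krt8, Krt18 and Krt7, the most abundant keratins on chromosome 15, whose levels were lowest in replicate 1 and highest in replicate 2, and of Krt5, which had no count and lies between Krt7 and Krt8. Each runs from 250 bases before to 50 after a RefSeq start (GRCm38.p6), 5′ to 3′ on the gene's strand, and capitals mark matches on either strand to TATAAA or to the GC box GGGCGG. Windows were chr15:102004293-102004592 on the minus strand for Krt8, chr15:102027966-102028265 on the plus strand for Krt18, chr15:101412153-101412452 on the plus strand for Krt7 and chr15:101712856-101713155 on the minus strand for Krt5.
Krt8: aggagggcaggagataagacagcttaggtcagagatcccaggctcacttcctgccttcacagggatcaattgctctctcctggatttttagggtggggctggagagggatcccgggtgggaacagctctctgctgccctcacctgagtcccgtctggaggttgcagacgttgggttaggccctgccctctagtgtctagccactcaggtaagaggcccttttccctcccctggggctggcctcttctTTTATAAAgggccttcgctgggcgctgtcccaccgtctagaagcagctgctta
Krt18: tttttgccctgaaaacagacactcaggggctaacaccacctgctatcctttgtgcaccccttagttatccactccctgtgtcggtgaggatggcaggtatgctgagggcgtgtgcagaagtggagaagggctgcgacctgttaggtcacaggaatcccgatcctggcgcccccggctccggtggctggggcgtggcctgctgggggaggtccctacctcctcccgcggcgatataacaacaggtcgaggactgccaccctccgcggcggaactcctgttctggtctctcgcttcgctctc
Krt7: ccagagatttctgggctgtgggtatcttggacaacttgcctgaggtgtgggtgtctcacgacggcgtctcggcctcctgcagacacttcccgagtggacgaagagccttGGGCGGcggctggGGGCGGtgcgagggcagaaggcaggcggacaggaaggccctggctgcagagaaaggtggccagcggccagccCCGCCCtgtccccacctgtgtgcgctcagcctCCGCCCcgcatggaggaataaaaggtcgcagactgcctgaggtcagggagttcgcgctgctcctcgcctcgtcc
Krt5: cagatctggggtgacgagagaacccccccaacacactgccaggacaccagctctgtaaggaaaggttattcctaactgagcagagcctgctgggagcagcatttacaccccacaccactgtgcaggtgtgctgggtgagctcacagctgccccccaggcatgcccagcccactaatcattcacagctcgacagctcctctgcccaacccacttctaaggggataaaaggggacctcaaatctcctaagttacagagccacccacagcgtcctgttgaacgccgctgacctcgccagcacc

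The Krt8 window held 2 matches to TATAAA, overlapping and on opposite strands, and the Krt7 window held 4 matches to GGGCGG. Neither sequence occurred in the Krt18 or Krt5 window. Of 32851 promoter windows of this length, 13.6% held TATAAA and 35.7% held GGGCGG. The AP-1 sequence TGANTCA, present in 7.81% of windows, was in none of these 4. The starts used are those of RefSeq, and the GENCODE gene model of Krt8 begins 140 bases further upstream and that of Krt7 1360 bases further upstream.

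Luminal keratins stood highest in 4T1-T cells. Levels between genes were compared as CPM per kb of exon. Krt18 stood at 519 to 988 and Krt8 at 442 to 709 over the 6 libraries. Krt7 followed at 50.6 to 180, Krt19 at 41.5 to 70.2 and Krt14 at 17.7 to 142. Krt80 was at 2.88 to 15.3, Krt17 at 0.895 to 2.68 and Krt15 at 0.0315 to 3.04. Krt18 and Krt8 thus made up 46.6% to 54.5% and 34.7% to 40.2% of the summed level of the 10 genes, and Krt14, the main basal chain present, made up 1.14% to 6.93%.

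Some neighbours in this order were not separated. Krt18 was above Krt8 in 6 of 6 libraries, by 1.18 to 1.57 times, although their ranges overlapped, and Krt8 was at least 3.95 times Krt7 in each library. Krt7 was above Krt19 in 4 of 6 libraries, Krt19 above Krt14 in 4 of 6, and Krt17 above Krt15 in 4 of 6, so with merged exon lengths these 3 neighbouring pairs overlapped and changed places between libraries. Krt14 was above Krt80, and Krt80 above Krt17, in 6 of 6. Several of these levels depend on the length used. The merged exons of Krt7 span 7049 bases against 4094 for its longest transcript, with which Krt7 rises to 87.2 to 309 CPM per kb. The ratio of Krt7 to Krt19 is then 1.35 to 5.98, so that Krt7 is above Krt19 in 6 of 6 libraries, and that of Krt7 to Krt8 reaches 0.436 in place of 0.253. Krt80 rises to 4.71 to 24.9 with its longest transcript and to 6.01 to 31.8 with its principal transcript, and remains between Krt14 and Krt17 in the order of mean levels. Shared sequence also limits them. For Krt8, 29.7% of the 50-base words of its transcripts also occur in transcripts of other genes, among them the pseudogene Krt8-ps. For Krt14 the share is 13.9%, with words matched on either strand. A 50-base read from these stretches cannot by itself be assigned to 1 gene. The study sequenced read pairs, whose other read may lie outside such a stretch.

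**Figure D1:**
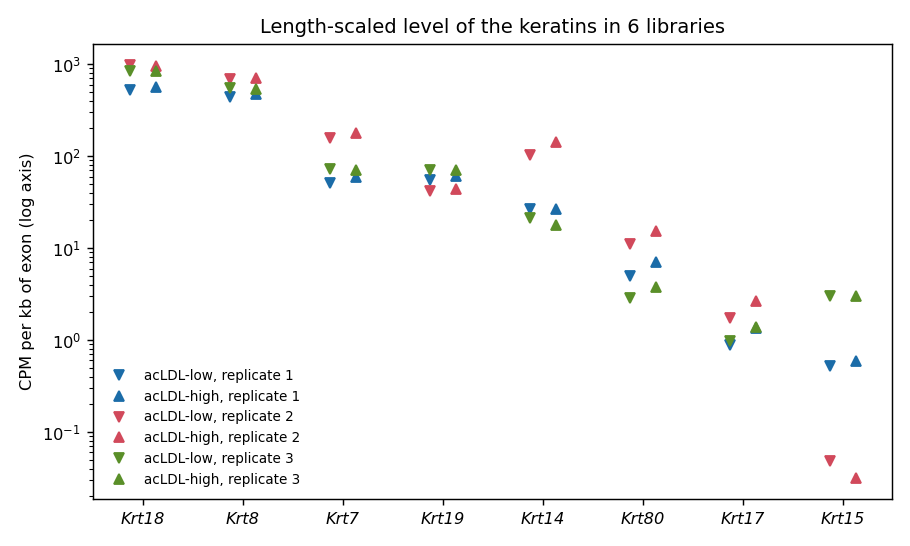
Length-scaled level of the 8 expressed keratins in each of the 6 libraries, in CPM per kb of merged exon on a log axis. Colors mark the replicate number, triangles pointing down are acLDL-low and triangles pointing up acLDL-high. Krt18 and Krt8 stand apart from the rest, and Krt15 spreads from 0.0315 to 3.04.

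Between the populations, Krt80 and Krt17 rose in acLDL-high cells and the 4 luminal keratins Krt7, Krt8, Krt18 and Krt19 did not pass the test. Of the 8 keratins tested, 2 were called, both higher in acLDL-high cells, where the share over all genes tested was 4.75% in either direction, 3.43% for higher and 1.32% for lower. The fitted log2 fold change was above 0 for 8 of 8, as for 50.6% of all genes tested, with a median of 0.08 beside 0.0017. For Krt8, Krt14, Krt15 and Krt18 it was smaller than its SE. The sign of these changed without replicate 1 or, for Krt14, without replicate 2. Krt17, Krt19 and Krt80 were higher in 3 of 3 replicate pairs, which 20.9% of all genes were. The 3 acLDL-high libraries did not separate from the 3 acLDL-low libraries for any of the 8, whereas 2.86% of all genes separated completely.

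**Figure D2:**
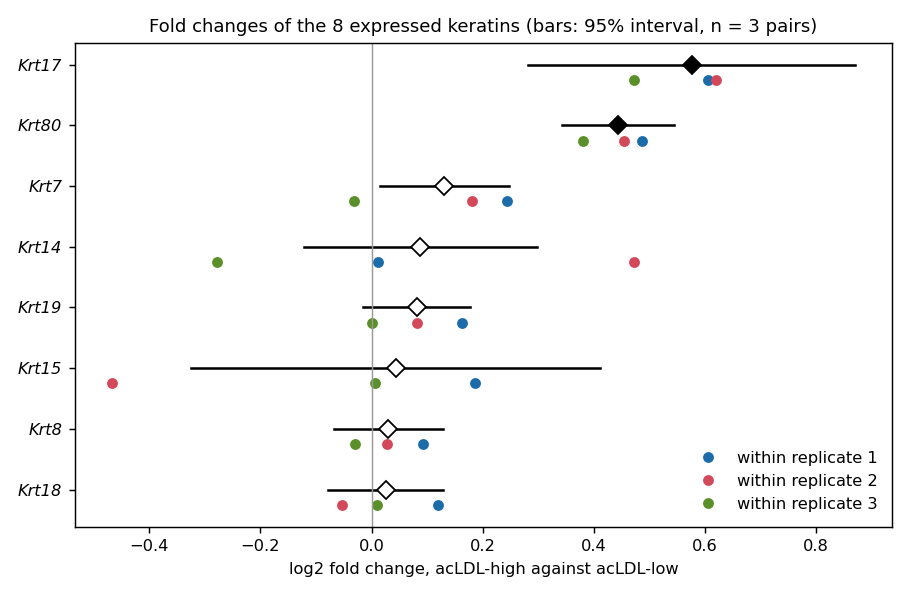
Log2 fold change of acLDL-high against acLDL-low for the 8 expressed keratins. Diamonds are edgeR estimates with 95% intervals, filled where the adjusted p was under 0.05, and colored points are the differences in log2 CPM within each replicate. Krt17 at 0.58 and Krt80 at 0.44 lie to the right of 0 in each replicate.

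KRT8 and KRT18 are the partners that form the filaments of simple epithelia. In replicates 1, 2 and 3, Krt8 (ENSMUSG00000049382, chr15:101996698-102004482, minus strand) was at 865, 1363 and 1078 CPM in acLDL-low and 922, 1389 and 1056 CPM in acLDL-high cells. Its level followed the replicate number, and within a replicate the populations lay close to each other. The log2 fold change was 0.03 (SE 0.05, 95% interval -0.07 to 0.13, adjusted p = 0.782 from edgeR). Krt18 (ENSMUSG00000023043, chr15:102028180-102032027, plus strand) was at 746, 1420 and 1208 CPM in acLDL-low and 811, 1368 and 1216 CPM in acLDL-high cells. It too was lowest in replicate 1 and highest in replicate 2 in each population. Its log2 fold change was 0.03 (SE 0.05, 95% interval -0.08 to 0.13, adjusted p = 0.831). Both intervals lay within -0.08 to 0.13 on the log2 scale.

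The ratio of Krt8 to Krt18 per kb was 0.851, 0.704 and 0.655 in acLDL-low and 0.835, 0.745 and 0.637 in acLDL-high cells of replicates 1, 2 and 3. The partners therefore kept nearly the same balance in both populations of a replicate. Summed over the 10 genes, the ratio of type II to type I keratins lay between 0.653 and 0.826, with a median of 0.778. The keratins took 0.224%, 0.397% and 0.298% of all counts in acLDL-low and 0.239%, 0.420% and 0.292% in acLDL-high libraries of replicates 1, 2 and 3.

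KRT7 and KRT19 are the other simple-epithelial chains of luminal and ductal cells. Krt7 (ENSMUSG00000023039, chr15:101411043-101430313, plus strand) was at 357, 1117 and 507 CPM in acLDL-low and 422, 1266 and 496 CPM in acLDL-high cells. It was higher in acLDL-high cells of replicates 1 and 2 and slightly lower in replicate 3. The log2 fold change of 0.13 (SE 0.05, 95% interval 0.02 to 0.25) was not called after adjustment (adjusted p = 0.199). Krt19 (ENSMUSG00000020911, chr11:100140810-100148665, minus strand) was at 101, 77.0 and 130 CPM in acLDL-low and 114, 81.5 and 130 CPM in acLDL-high cells. Replicate 3 was level, with a difference of 0.0002 on the log2 scale, and the other replicates were slightly higher, and the log2 fold change was 0.08 (SE 0.04, 95% interval -0.015 to 0.18, adjusted p = 0.347). Krt7 was highest in replicate 2 where Krt19 was lowest, so that the ratio of Krt7 to Krt19 per kb was 3.82 and 4.09 in replicate 2 against 0.926 to 1.02 in the other libraries.

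**Figure D3:**
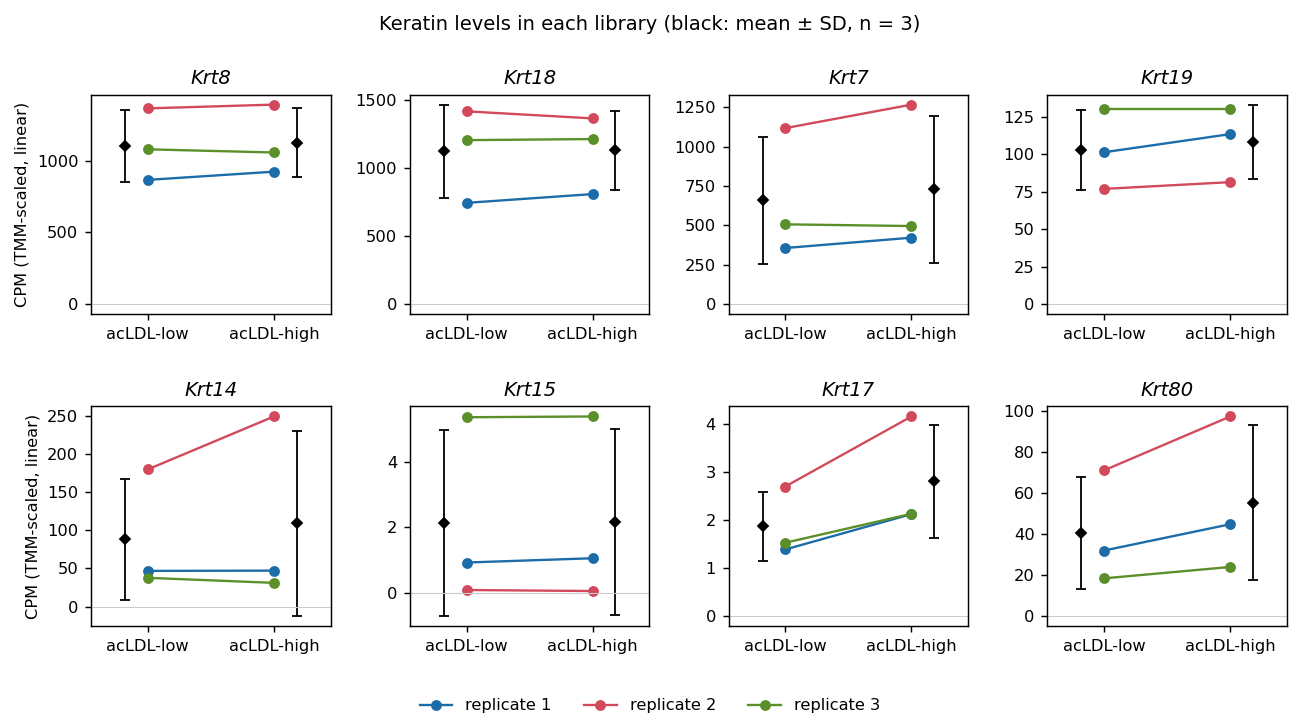
TMM-scaled CPM of the 8 expressed keratins in acLDL-low and acLDL-high cells, on linear axes. Colored lines join the libraries of a replicate, and black diamonds with bars are the mean ± SD (n = 3). Lines of Krt80 and Krt17 climb in each replicate, while those of Krt8 and Krt18 are nearly flat.

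Among the basal keratins, Krt14 was present without its usual partner. Krt5 (ENSMUSG00000061527, chr15:101707070-101712898, minus strand), the type II chain of basal cells, had 0 counts in 6 of 6 libraries, which allows up to 0.0429 CPM. Krt14 (ENSMUSG00000045545, chr11:100203162-100207548, minus strand) was at 46.8, 180 and 37.7 CPM in acLDL-low and 47.1, 249.2 and 31.1 CPM in acLDL-high cells. Both replicate 2 libraries stood well above the others. Its direction differed between replicates, with 0.01, 0.47 and -0.28 on the log2 scale. The log2 fold change fitted by edgeR was 0.09 (SE 0.10, 95% interval -0.12 to 0.30, adjusted p = 0.676). The differences of 0.47 and -0.28 lay outside this interval, which was narrower than the spread over replicates. DESeq2 gave a log2 fold change of 0.07 with a larger SE of 0.22 (adjusted p = 0.951). Without replicate 2 the edgeR log2 fold change was -0.13 (adjusted p = 0.251).

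Krt15 (ENSMUSG00000054146, chr11:100131758-100135928, minus strand), a type I chain of basal and progenitor cells in stratified epithelia, varied most of the 8 over replicates. It was at 0.925, 0.0867 and 5.36 CPM in acLDL-low and 1.06, 0.0556 and 5.38 CPM in acLDL-high cells. Replicate 2 was close to the limit of detection, with 7 and 4 counts, and replicate 3 was the highest. The log2 fold change was 0.04 (SE 0.17, 95% interval -0.32 to 0.41, adjusted p = 0.927), and this interval was the widest of the 8.

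Of the injury keratins, Krt17 rose and Krt6a was not detected. Krt6a (ENSMUSG00000058354, chr15:101689910-101694307, minus strand) and its neighbour Krt6b, a near-identical gene (57.2% of the 50-base words of Krt6a occur in other transcripts), had 0 counts in all 6 libraries. Krt17 (ENSMUSG00000035557, chr11:100256217-100261029, minus strand) was low, at 1.39, 2.70 and 1.53 CPM in acLDL-low and 2.12, 4.16 and 2.13 CPM in acLDL-high cells, from 105 to 299 counts a library. It was higher in acLDL-high cells of each replicate, by 0.61, 0.62 and 0.47 on the log2 scale, while the populations overlapped because replicate 2 was high in both. The log2 fold change was 0.58 (SE 0.14, 95% interval 0.28 to 0.87), or 1.49-fold, with an adjusted p of 0.0313 from edgeR.

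That call was close to its threshold. It was lost with DESeq2 (adjusted p = 0.121), without the replicate block (log2 fold change 0.59, adjusted p = 1), a fit in which edgeR called 0 of 12329 genes and 45 had an unadjusted p under 0.05, and when any replicate was left out (adjusted p = 0.0618, 0.0883 and 0.153 without replicates 1, 2 and 3), with log2 fold changes from 0.54 to 0.62. Krt17 shares 3.995% of its 50-base words with other transcripts, among them those of Krt14 and Krt16, so counts of these 3 genes are uncertain where they share sequence. In replicates 1, 2 and 3 the log2 differences were 0.61, 0.62 and 0.47 for Krt17 and 0.31, 0.18 and 0.71 for Krt16. For Krt14 they were 0.01, 0.47 and -0.28. The part of shared reads in the Krt17 difference was not tested.

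Krt80 had the smallest adjusted p of the 8. KRT80 is a type II keratin that is found near desmosomes and cell edges in many epithelia. Krt80 (ENSMUSG00000037185, chr15:101347444-101370162, minus strand) was at 32.0, 71.2 and 18.4 CPM in acLDL-low and 44.9, 97.6 and 24.0 CPM in acLDL-high cells. The replicates differed more than the populations, with replicate 2 highest and replicate 3 lowest, yet each acLDL-high library was above its own acLDL-low library. The differences of 0.49, 0.45 and 0.38 gave a log2 fold change of 0.44 (SE 0.05, 95% interval 0.34 to 0.54), or 1.36-fold, with an adjusted p of 0.000204 from edgeR. It was called in 10 of 11 alternatives, with log2 fold changes between 0.42 and 0.47, and was lost in the fit without the replicate block (0.46, adjusted p = 1). An antisense gene overlaps 263 bases of its exons, and the strand setting of the counting is not given in the sources used here.

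Spread over the replicates was larger than the difference between populations for each of the 8 keratins. The range of the replicate means was 5.82 on the log2 scale for Krt15, 2.63 for Krt14, 1.98 for Krt80, 1.62 for Krt7, 0.95 for Krt17, 0.84 for Krt18, 0.72 for Krt19 and 0.62 for Krt8, against a median of 0.45 over all genes tested. The mean size of the difference between populations was between 0.05 for Krt8 and 0.57 for Krt17, against a median of 0.10. Replicate 2 was highest for Krt7, Krt8, Krt14, Krt17, Krt18 and Krt80 and lowest for Krt15 and Krt19. Expressed per kb, Krt5, Krt14 and Krt15 together made up 5.12% and 6.94% of the 10 keratins in the acLDL-low and acLDL-high libraries of replicate 2, against 1.33% to 2.47% in the other libraries. Each replicate number has 1 library per population, and these differences between replicate numbers are a description with no test.

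**Figure D4:**
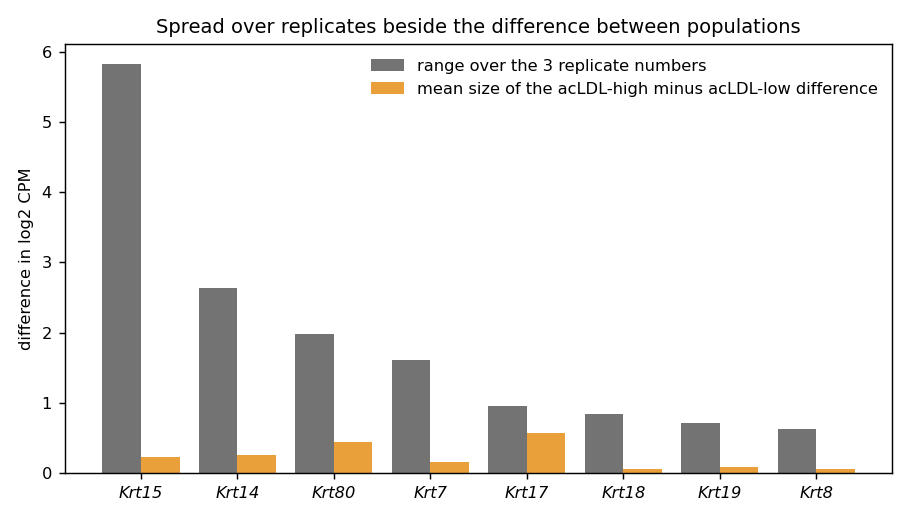
For each expressed keratin, the grey bar is the range of the mean log2 CPM over the 3 replicate numbers and the orange bar is the mean size of the difference between acLDL-high and acLDL-low within replicates. Grey bars are the taller for each gene, from 5.82 for Krt15 to 0.62 for Krt8.

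Genes with the most similar levels over the 6 libraries were listed as a description, since the libraries group by replicate number and many genes share this pattern. For Krt8 they were Dgkh, Il24 and Tbc1d1, with Pearson correlations of log2 CPM of 0.999, 0.999 and 0.998, and 581 genes had one above 0.95. Krt14 was closest to Ethe1, Lmtk2 and Nup214, at 0.998, 0.997 and 0.997, with 992 genes above 0.95. For Krt80 they were Asb4, Trappc1 and Ankrd28, at 0.999, 0.997 and 0.997, with 537 genes above 0.95.

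The remaining keratins were mostly silent. Of 44 other keratin genes in the count matrix, 32 had at most 3 counts in each library. Of these 44, 5 could be tested and 1, Krt16, was called, where 4.75% of all genes tested were. Krt16, the type I partner of KRT6 chains in injured skin, was at 7.22, 13.3 and 9.24 CPM in acLDL-low and 8.96, 15.1 and 15.2 CPM in acLDL-high cells. It was higher in 3 of 3 pairs, by 0.40 on the log2 scale in the fit (SE 0.10, adjusted p = 0.0313). Krt10, Krt13, Krt42 and Krt88 had log2 fold changes of 0.09, 0.07, -0.11 and -0.91 with adjusted p values between 0.235 and 0.891.

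Genes that anchor keratin filaments did not pass the test. Of 16 genes of desmosomes, hemidesmosomes and plakin linkers, 15 were tested and 0 were called by edgeR or by DESeq2. In edgeR, 4 were at an unadjusted p under 0.05, a count given without the share over all genes. The median log2 fold change of the 15 was 0.0004. Values ran from -0.21 for Col17a1, a hemidesmosomal collagen, to 0.53 for Dsg3, a desmosomal cadherin of stratified epithelia (edgeR adjusted p = 0.289 and 0.143). For all genes tested, 4.75% were called and the median was 0.0017. Among 11 other intermediate filament genes, 9 were tested and 1 was called, with a median of -0.01. This was Lmnb1, which encodes lamin B1 of the nuclear lamina, with a log2 fold change of 0.16 (SE 0.04, adjusted p = 0.0432). Vim, the vimentin gene of mesenchymal cells, was at 3571 ± 325 CPM in acLDL-low and 3315 ± 87.3 CPM in acLDL-high cells (SD, n = 3). Its difference of -0.10 on the log2 scale was not called (adjusted p = 0.334).

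Of 16 transcription factors known for epithelial identity, 15 were tested, 2 were called higher and 0 lower, with a median log2 fold change of 0.19. Among all genes tested, 3.43% were called higher and 1.32% lower, and the median was 0.0017. Of the 15 factors, 5 were at an unadjusted p under 0.05 in edgeR, a count given without the share over all genes. Ovol1, a zinc finger transcription factor known for epidermal differentiation, was at 11.95, 7.56 and 21.9 CPM in acLDL-low and 17.0, 11.1 and 31.1 CPM in acLDL-high cells. Each acLDL-high library was above its own acLDL-low library, and the log2 fold change was 0.52 (SE 0.06, adjusted p = 0.000486). Klf4, a factor of terminal differentiation in barrier epithelia, had a log2 fold change of 0.19 (SE 0.05, adjusted p = 0.0452). Trp63, whose product p63 defines basal cells and drives KRT5 and KRT14 in skin, was at 0.145, 0.0248 and 0.0571 CPM in acLDL-low and 0.352, 0.125 and 0.215 CPM in acLDL-high cells, from 2 to 28 counts a library. Its difference of 1.62 on the log2 scale was not called (SE 0.52, adjusted p = 0.102), and the populations overlapped.

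Cell type markers were read beside these results. Of all genes tested, edgeR called 4.75%, 3.43% higher and 1.32% lower, and DESeq2 called 470 of 15973 protein-coding genes. Counts at an unadjusted p under 0.05, here and for the other lists, have no such share beside them in the fit with the block. Among 14 luminal markers, Epcam, Cd24a, Cdh1, Gata3 and Esr1 were expressed beside Krt8, Krt18 and Krt19, 0 of the 8 tested were called by edgeR (2 at an unadjusted p under 0.05), and Elf5, Pgr, Csn2 and Wap had 0 counts. Cdh1, the E-cadherin gene, was at 811 ± 45.8 CPM in acLDL-low and 888 ± 34.7 CPM in acLDL-high cells (SD, n = 3), differing by 0.13 on the log2 scale (SE 0.04, adjusted p = 0.108), and was called by DESeq2 alone. Of 12 basal or myoepithelial markers 8 were tested, 3 were at an unadjusted p under 0.05 and 1, Krt17, was called, while DESeq2 called 0, Krt5 had no count and the smooth muscle actin gene Acta2 had at most 3 counts in a library. Endothelial markers summed to 1.56 to 2.64 CPM in acLDL-low and 1.51 to 2.32 CPM in acLDL-high cells, with 3 of 8 tested, 0 called by edgeR or DESeq2, 0 at an unadjusted p under 0.05, and Kdr, Tek, Emcn and Erg at 3 counts or fewer in each library. Macrophage markers summed to 19.2 to 21.5 and 20.1 to 24.4 CPM, mostly from Cd68 and Cd14, with 4 of 8 tested and Adgre1 and C1qa at 0 counts. Of the 4, 2 were at an unadjusted p under 0.05, in opposite directions. Cd14 was called higher by edgeR, by 0.32 on the log2 scale (adjusted p = 0.0246), and not by DESeq2, while Cd68 was at -0.28 and was not called (adjusted p = 0.201). Their part in the keratin differences was not tested. Fibroblast markers summed to 29.04 to 41.1 and 29.8 to 43.3 CPM, mostly from Pdgfra, with 2 of 7 tested, 0 called by either tool and 0 at an unadjusted p under 0.05.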

How the data were processed

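RNA was measured in 6 libraries, 3 acLDL-low and 3 acLDL-high, with groups and replicate numbers from the sample titles. Per the submitters' processing notes, the authors aligned reads to mm10 with STAR (2.5.2a), counted them per gene with featureCounts (1.4.3-p1) and deposited raw counts for 53379 gene IDs, without normalization. Multi-mapped reads, the annotation release and the strand setting are not described in the sources used here. The authors' DESeq2 table served only for its list of protein-coding genes and symbols. Its other columns hold their own comparison and were not used.

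Counts were filtered with filterByExpr, scaled by TMM and tested two-sided with edgeR (4.0.16, R 4.3.3) with the replicate number as a block, as the study's methods included replicate information. Same-numbered libraries deviated together (correlations across genes of 0.795, 0.846 and 0.799). Each SE was taken as the size of the fitted change over the root of its F statistic. CPM uses TMM-scaled sizes, and log2 CPM a prior count of 2. Positions and lengths are from GENCODE M21 (GRCm38), which held 53274 of the gene IDs. The scripts were tested on simulated data with known changes. A call lost without the block does not show a weaker change, since that fit called 0 of 12329 genes.

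The members and all lists were chosen with earlier results of these data known. Every member is named, as are called genes of the other lists, tested keratins, and the 3 genes most correlated with Krt8, Krt14 and the called member of smallest p. Other genes given by name (Vim, Col17a1, Dsg3, Trp63, Sfn, squamous genes at 0 counts, Krt6b, Krt8-ps and the cell type markers) were chosen after their values were seen. Alternatives were a fit without the block, DESeq2's size factors, DESeq2 (1.42.0), other filters, all genes of the table, each replicate left out, a threshold of 0.01 and another transcript length. Upper-quartile scaling and the principal transcript's length were added after seeing the data.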

Additional observations from a re-analysis of the deposited data

Results flagged for a closer look

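Krt8-ps, an annotated pseudogene of Krt8 that is outside the protein-coding genes compared, carried counts in each library. It had 110, 197 and 147 counts in acLDL-low and 105, 168 and 156 counts in acLDL-high cells of replicates 1, 2 and 3, above the 3 counts that a count of 0 allows. In the same libraries Krt8 had between 65478 and 110099 counts, and reads that fall in sequence shared by Krt8 and Krt8-ps cannot be told apart from the counts alone.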

How the results depend on the processing

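Over 11 alternatives, 76 of the 87 values of the 8 keratins kept their direction and their side of the threshold. Of the rest, 7 fell short of the threshold and 4 changed sign, the latter all among genes that were not called. The 7 were all values of Krt80 and Krt17, which were called in 10 of 11 and 5 of 11 alternatives. The other keratins were not called in the main fit and so could not fall short. The threshold of 0.01 was applied to the main fit itself, so its 7 values among the 76 are no separate check. When replicates were left out in turn, Krt8 ran from -0.0003 to 0.0614, Krt15 from -0.0244 to 0.074 and Krt18 from -0.0209 to 0.0629, each negative without replicate 1, and Krt14 from -0.1326 without replicate 2 to 0.2553. The number of keratins called was 0 without the replicate block, 1 with DESeq2, 1 at an adjusted p under 0.01 and 1 in each fit that left out a replicate, where the keratin called was Krt80. The number of genes called was 597, and became 0 without the replicate block (45 at an unadjusted p under 0.05, edgeR), 932 without the low-count filter, 199 at an adjusted p under 0.01 and from 126 without replicate 3 to 869 without replicate 2. Without the block, 0 genes were called among the other keratins, other intermediate filaments, epithelial transcription factors, basal markers and macrophage markers, and 0 of them were at an unadjusted p under 0.05. The ratio of type II to type I keratins was 0.870 with the longest transcript and 0.874 with the principal transcript, whose shorter Krt7 length raises Krt7. The cause of the other changes was not tested. Summing Krt6a and Krt6b could not be run, as neither had a count. Depth limits Krt15 in replicate 2 and Trp63, which rest on few counts.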

Other observations

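Krt13, a type I keratin of stratified mucosa that neighbours Krt15 in the type I cluster, had its lowest values in replicate 2, as Krt15 had. It was at 1.86, 0.545 and 4.18 CPM in acLDL-low and 2.00, 0.278 and 5.18 CPM in acLDL-high cells of replicates 1, 2 and 3. Both genes were highest in replicate 3, and neither was called between the populations.

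Genes of squamous differentiation gave no call. Of 14 such genes, which include cornified envelope precursors and desmosomal proteins of skin, 5 were tested and 0 were called by edgeR or DESeq2, with 0 at an unadjusted p under 0.05, and Krtdap, Sprr2d, Sprr2f and Sprr2h had 0 counts. Sfn, which encodes a 14-3-3 protein of epithelial cells, differed by 0.10 on the log2 scale (adjusted p = 0.314).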
